A study of Mus musculus with 4 samples.

Results

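Transcripts that mark the colonic epithelium were read in sorted gamma delta intraepithelial lymphocytes, as a measure of epithelial RNA in those samples. The 37 genes were chosen by name, as keratins, junction proteins, goblet cell products, absorptive cell products and transcription factors of the colonic lining, out of 18193 genes named by 1 symbol on the array. All 37 were on the array, on 76 probe sets, and 31 of them passed a filter on low signals and entered a comparison of 12424 genes. Colons of mice labelled C57b/6, raised conventionally, were the source of the sorted cells. The untreated group had 2 arrays from mice given no treatment, and the DSS group had 2 arrays from mice given dextran sulfate sodium (DSS), which damages the lining of the colon, at 2% over 5 days, followed by 3 days on normal water. The labels give no age or sex, no number of mice per array and no word on whether replicates came from separate animals or sorts, and the p-values therefore reflect the scatter among these arrays alone, some or all of which may be technical.

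Gamma delta intraepithelial lymphocytes are T cells that lie between the epithelial cells of the gut, and they are freed for sorting by stripping that epithelium. The colonic epithelium is a single sheet of cells that arise from stem cells in crypts and mature into absorptive colonocytes, which take up salt and water, and goblet cells, which secrete mucus. Keratin filaments and cell junctions hold the sheet together, and homeobox factors such as Cdx2 keep its intestinal character. In a bulk sample, fewer cells of a type and less RNA per cell cannot be told apart.

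The cells' labelled type was checked against its markers. The T cell receptor partner Cd3e had deposited signals (linear intensity, the same unit throughout) of 7981 and 18964 (untreated) and 10288 and 11548 (DSS). The gamma delta receptor gene Trgv4 had 41444 and 46104 against 29034 and 31855. Its probe set can bind related transcripts, so by itself it does not settle the gamma delta type. Among 39 listed T cell and intraepithelial lymphocyte genes, 30 were named on the array and at least 28 lay above the array median on every array. Array medians were 193.8 and 213.9 (untreated) and 157.1 and 163.3 (DSS). The bacterial and phage transcripts added as hybridisation controls were 5.83-fold brighter on the untreated arrays, so a difference between the groups cannot be told apart from a difference in array processing.

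No epithelial gene passed the test between DSS and untreated samples. Limma with Benjamini-Hochberg adjustment called 0 of the 31 tested members, against 0% of all 12424 genes tested. The members' adjusted p-values lay between 0.649 and 0.98, while the smallest among all genes was 0.0823. At an unadjusted limma p under 0.05 there were 2 members, Cdx2 and Muc13, against 7.52% of all genes. Of these, Cdx2 passed the filter through its DSS signals alone and had to differ, so its place here carries no weight. Of the 31 members, 15 had a higher and 16 a lower estimate in DSS samples. Their median difference was -0.08 on the scale of log2(signal + 32), on which all differences here are given, and that of all tested genes was -0.07. Without a filter the medians were 0.04 for all 37 members and -0.14 for all genes, and without untreated replicate 2 they were -0.26 and -0.08.

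**Figure D1:**
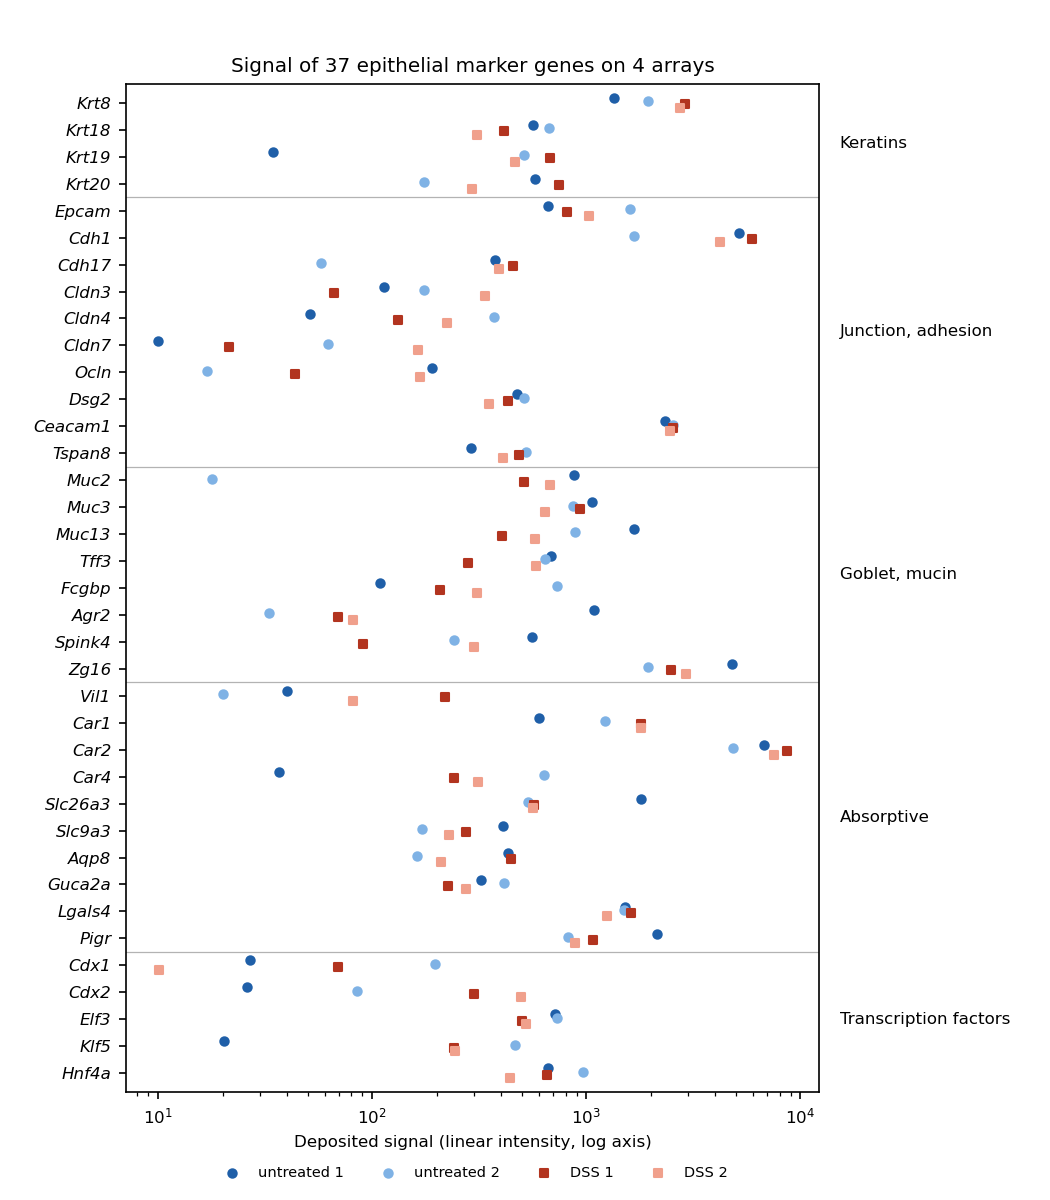
Deposited signal of each of the 37 epithelial genes (rows, grouped by role) on the 2 untreated arrays (circles) and the 2 DSS arrays (squares), on a log axis, 1 point per array and 1 probe set per gene. For genes such as Muc2, Agr2, Krt19, Car4 and Klf5, 1 untreated array lies far from the other and the DSS arrays lie close together.

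A simple count gave the same picture. Among all 37 members, without a filter, both DSS arrays lay above both untreated arrays for 6 members (Krt8, Cdh17, Vil1, Car1, Car2 and Cdx2), a share of 16.2% against 14.8% of 18193 genes. Both lay below for 7 members (Krt18, Dsg2, Muc13, Tff3, Guca2a, Elf3 and Hnf4a), a share of 18.9% against 25.1%. In the tested set the counts were 5 members higher, against 17.2% of genes, and 7 lower, against 23.8%. The 5 include Cdx2, which passed the filter through its DSS signals alone and had to differ. Both shares of the tested members, 16.1% and 22.6%, were near those of all genes. These counts, and the orders of single genes given below, hold on the deposited scale. They were not repeated after another scaling, and the array medians were lower on both DSS arrays, so some of these orders may depend on the scaling.

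Keratins form the intermediate filaments of epithelial cells, and type II Krt8 pairs with type I Krt18 in simple epithelia. Krt8 had signals of 1353 and 1950 in untreated samples against 2878 and 2753 in DSS samples. The groups did not overlap, and the difference was 0.78 ± 0.39 (SE, n = 2 per group; limma adjusted p = 0.651). Its other 2 probe sets, which can bind related transcripts, differed by 1.28 and 1.26, and the groups overlapped on the latter. Its partner Krt18 went the other way, with 564 and 666 on the untreated and 414 and 310 on the DSS arrays. The groups again did not overlap, and the difference was -0.72 ± 0.42 (limma adjusted p = 0.682). The sequences before the annotated starts of these partner genes and of Cdx2 are printed here. They were picked because Krt8 and Krt18 had estimates of opposite sign and Cdx2 had the largest difference of the members. That difference carries no weight, since Cdx2 passed the filter through its DSS signals alone and had to differ. Each sequence is the 250 bases before the start in RefSeq, build GRCm38.p6, read 5′ to 3′ on the gene's strand. They lie at chr15:102004343-102004592 (minus strand) for Krt8, chr15:102027966-102028215 (plus strand) for Krt18 and chr5:147307250-147307499 (minus strand) for Cdx2. Capitals mark matches on either strand to CCNCNCCC, a core of sites for Klf factors, or AGGAAG, a core of sites for Ets factors such as Elf3.
Krt8: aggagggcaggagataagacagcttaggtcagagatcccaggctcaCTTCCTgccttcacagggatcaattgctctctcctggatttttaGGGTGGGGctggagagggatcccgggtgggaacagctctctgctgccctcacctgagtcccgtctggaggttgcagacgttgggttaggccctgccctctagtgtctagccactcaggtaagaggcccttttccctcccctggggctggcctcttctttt
Krt18: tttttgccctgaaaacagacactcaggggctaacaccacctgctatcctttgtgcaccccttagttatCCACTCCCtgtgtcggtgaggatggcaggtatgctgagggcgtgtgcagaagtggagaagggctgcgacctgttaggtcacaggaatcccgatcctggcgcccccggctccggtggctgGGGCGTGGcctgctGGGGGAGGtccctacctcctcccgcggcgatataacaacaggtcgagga
Cdx2: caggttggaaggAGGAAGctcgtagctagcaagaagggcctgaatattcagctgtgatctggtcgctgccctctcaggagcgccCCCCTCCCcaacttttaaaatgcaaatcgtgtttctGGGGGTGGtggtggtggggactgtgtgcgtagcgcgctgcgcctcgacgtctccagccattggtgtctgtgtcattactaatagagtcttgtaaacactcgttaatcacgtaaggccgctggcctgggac

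The Krt8 window held 1 Klf and 1 Ets match, the Krt18 window 3 Klf matches and no Ets match, and the Cdx2 window 2 Klf matches and 1 Ets match. Such windows were at hand for 26 of the 37 members. The Klf core was found before 22 of these 26 genes, 84.6%, and before 48.5% of 27025 genes with windows of the same length. The Ets core was found before 46.2% of the members and 32.3% of all genes. The members' windows also had more G and C, with a median of 56% against 52.4%, and the Klf core is made mostly of C. The core TTTATNG of Cdx factors was found before 3 members (Agr2, Epcam and Krt20), 11.5% against 11.3%, and the core CAAAGTNCA of Hnf4 factors before Muc13 alone, 3.85% against 1.4%. These matches describe the sequences, and none of these values bears on whether a factor binds there.

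The remaining keratins differed between replicates. Krt19, a type I keratin of simple epithelia, had 34.3 and 511 on the untreated and 675 and 466 on the DSS arrays. The first untreated array was the low one, and the second lay between the DSS arrays. The difference was 1.64 ± 0.94 (limma adjusted p = 0.679). Krt20, a keratin of mature surface cells, had 578 and 174 against 747 and 291, so the spread within each group exceeded the difference between them.

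Junction and adhesion genes gave no common direction. Of 10 such members, 7 were tested, with a median difference of 0.16, which was 0.45 after common-median scaling and -0.22 without untreated replicate 1. Cdh1 (E-cadherin), the adhesion protein of adherens junctions, had 5145 and 1675 on the untreated and 5947 and 4191 on the DSS arrays. Untreated replicate 1 lay between the DSS arrays and replicate 2 stood below them (difference 0.76 ± 0.58, limma adjusted p = 0.723). Cdh17, the cadherin of intestinal epithelium, had 374 and 57.7 against 456 and 389. Both DSS arrays were higher, narrowly so against untreated replicate 1 (difference 1.25 ± 0.77, limma adjusted p = 0.688).

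Epcam, an epithelial cell adhesion molecule that is widely used to sort epithelial cells, had 659 and 1595 on the untreated and 813 and 1025 on the DSS arrays. The DSS arrays lay between the untreated ones. Its second probe set read 709 and 167 against 358 and 250, so the 2 probe sets put the untreated arrays in opposite orders. Ceacam1, an adhesion molecule that activated T cells also express, was even across the arrays, with 2327 and 2554 against 2553 and 2463, a difference of 0.04 ± 0.37. Its probe set can bind related transcripts of the Ceacam family, and the gene's other 3 kept probe sets lay between -0.60 and -0.22.

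The desmosomal cadherin Dsg2 had 473 and 514 against 431 and 350 on its brightest probe set. Its 4 kept probe sets ranged from -2.43 to 1.94, so no direction can be given for it. Tspan8, a tetraspanin of epithelial membranes, had 289 and 524 against 486 and 408, and its 4 kept probe sets ranged from -1.20 to 0.18. The claudins and occludin, the strand proteins of tight junctions, were dim. Cldn4 had 51.2 and 372 against 132 and 224, with wide overlap. Cldn3 (114 and 174 against 66.0 and 335), Cldn7 (9.94 and 62.4 against 21.5 and 164) and Ocln (191 and 16.9 against 43.4 and 167) each exceeded the array median on only 1 array and were not tested.

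Goblet cell and mucin genes were the role group with the most lower estimates. Of 7 tested, 6 had a lower estimate in DSS samples, with a median of -0.30 that became 0.03 after common-median scaling. Muc13, a membrane-bound mucin of the colonic surface, had 1671 and 886 on the untreated and 402 and 577 on the DSS arrays. The groups did not overlap, and the difference was -1.28 ± 0.47 (limma adjusted p = 0.649). Its second kept probe set differed by -1.99, in the same direction. Tff3, the trefoil peptide that goblet cells secrete with mucus, had 686 and 644 against 279 and 584 (difference -0.67 ± 0.48, limma adjusted p = 0.715). The second DSS array was close to the untreated ones. Spink4, a goblet cell protease inhibitor, had 555 and 240 against 90.6 and 297, and the groups overlapped (difference -0.99 ± 0.70, limma adjusted p = 0.715).

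Muc2, the gel-forming mucin of the colonic mucus layer, had the widest gap between replicates. It had 877 and 17.8 in untreated samples against 509 and 675 in DSS samples, so its untreated signals differed by 18.3-fold on the scale of signal + 32. Agr2, a disulfide isomerase needed to make Muc2, showed the same order of the untreated arrays, with 1089 and 33.1 against 69.2 and 81.4, and was above the array median on untreated replicate 1 alone. Its second probe set read 921 and 95.6 against 17.6 and 12.7. Zg16, a mucus lectin, had 4785 and 1950 against 2482 and 2932. Fcgbp, a mucus component that binds immunoglobulin G Fc, went against these genes on the untreated arrays, with 109 and 727 against 207 and 308. Muc3, a membrane mucin, was more even, with 1068 and 863 against 935 and 638. In all, 7 of the 8 goblet and mucin genes were brighter on the first untreated array than on the second.

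Genes of absorptive colonocytes fell on both sides of 0. Of 9 tested, 4 had a higher and 5 a lower estimate, with a median of -0.08, which was 0.26 after common-median scaling. The carbonic anhydrases, which supply bicarbonate and protons for salt transport, had higher estimates. Car1 had 599 and 1219 on the untreated and 1802 and 1794 on the DSS arrays. The DSS arrays agreed closely and lay above both untreated arrays, and the difference was 1.04 ± 0.46 (limma adjusted p = 0.649). Car2, the widely expressed cytosolic form, had 6772 and 4818 against 8701 and 7497, a difference of 0.50 ± 0.38. Car4, the membrane-anchored form, had 36.7 and 632 against 242 and 313, and the untreated arrays enclosed the DSS arrays. A second probe set of Car4, below the filter, differed by only 0.002, so no direction can be given for Car4.

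Transporters and secreted products had lower estimates or overlapped between the groups. Slc26a3, the chloride-bicarbonate exchanger of the colonic surface, had 1795 and 537 on the untreated and 571 and 566 on the DSS arrays. Only untreated replicate 1 stood apart, and the 4 probe sets differed by -1.41 to -0.43. Pigr, the receptor that carries IgA across the epithelium, had 2134 and 823 against 1072 and 886, again with replicate 1 apart. The sodium-proton exchanger Slc9a3 had 408 and 171 against 274 and 229, and the water channel Aqp8 had 431 and 161 against 446 and 209. Neither separated the groups. Guca2a (guanylin), a peptide that controls fluid secretion, had 322 and 412 against 225 and 276, lower on both DSS arrays (difference -0.49 ± 0.48). Lgals4, a galectin of enterocytes, hardly varied, with 1511 and 1494 against 1614 and 1243 (difference -0.08 ± 0.39). Vil1 (villin), which bundles the actin of microvilli, had 40.2 and 20.0 against 220 and 81.1. It was higher on both DSS arrays but above the array median on only 1, and was not tested.

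**Figure D2:**
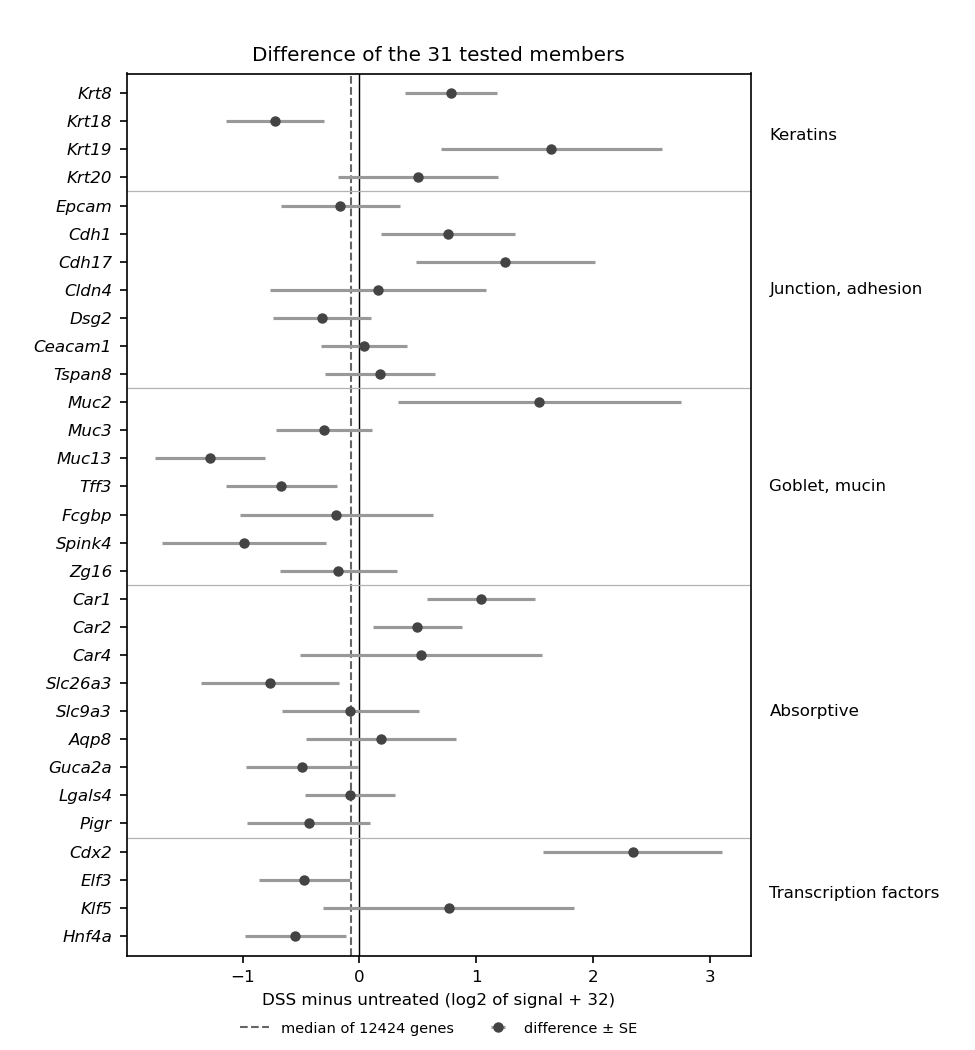
Difference between DSS and untreated samples for the 31 tested members (points, log2 of signal + 32), with the limma standard error as bars, n = 2 arrays per group. The solid line marks 0 and the dashed line the median of all 12424 genes, -0.07. Points lie on both sides in every role group.

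The transcription factors were split as well. Cdx2, the homeobox factor that keeps intestinal identity, had 25.9 and 85.2 on the untreated and 299 and 494 on the DSS arrays. The groups did not overlap and the difference, 2.34 ± 0.77, was the largest of the tested members (limma adjusted p = 0.649). Cdx2 lay below the array median on both untreated arrays, so it passed the filter through its DSS signals alone and had to differ. Its other probe set, below the filter, read 44.2 and 67.3 against 14.7 and 19.4, in the opposite direction. Its relative Cdx1 had 27.0 and 197 against 69.1 and 10.1, above the array median on no array.

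Elf3, an Ets factor of differentiating epithelium, had 712 and 731 on the untreated and 501 and 521 on the DSS arrays. Replicates were close and the groups did not overlap, with a difference of -0.47 ± 0.39. Hnf4a, a nuclear receptor of absorptive cells, had 662 and 965 against 653 and 441, and its 3 kept probe sets differed by -1.44 to -0.54. Klf5, a zinc finger factor of crypt cells, had 20.3 and 467 against 241 and 243, so the DSS arrays matched while the untreated ones lay on either side. Its other probe sets, below the filter, put the untreated arrays in the opposite order. They read 77.3 and 9.76 against 127 and 111, higher on both DSS arrays, and 38.1 and 8.14 against 4.47 and 11.8, with overlap.

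The 2 untreated arrays differed more in these genes than in most. Among the 31 tested members, 17 (54.8%) had untreated signals more than 2-fold apart on the scale of signal + 32, against 34.5% of all tested genes. A second list of epithelial genes, read below, did not share this, with 35.9% of its 39 tested genes. In lists of other cell types the share ran from 20% (endothelial) to 57.1% (B cell and plasma cell), with 52.2% for macrophage and dendritic cell genes. When all tested genes were divided into 4 equal classes by mean signal, the share ran from 30.4% to 46.0%. Between the DSS arrays the corresponding share was 6.45% of the members, against 13.4% of all genes. Among all 37 members, without the filter, the shares were 56.8% between untreated arrays and 18.9% between DSS arrays, against 36.6% and 19.7% of 18193 genes. The median gap of the tested members was 1.11 between untreated and 0.33 between DSS arrays, and their median absolute difference between the groups was 0.50. The gap between the untreated arrays exceeded the difference between the groups for 18 of them (58.1%), near the 62.1% of all tested genes.

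The gaps between the untreated arrays had no single direction. Of the 37 members, 18 were brighter on the first and 19 on the second untreated array. All 5 transcription factors were brighter on the second, and 7 of 8 goblet and mucin genes on the first. The 3 claudins, Epcam and Krt19 were brighter on the second array, and Cdh1, Cdh17, Slc26a3 and Pigr on the first. These orders were read on 1 probe set per gene. Some other probe sets of Epcam, Dsg2, Ceacam1, Tspan8, Slc26a3, Pigr, Klf5 and Zg16 put the untreated arrays in the opposite order. Those of Slc26a3 read 228 and 315, and 228 and 419, and that of Pigr read 103 and 184. For Actb, the signal of the 3' probe set over that of the 5' one, a sign of RNA quality, was 14.7 on the first and 23.0 on the second untreated array, and 15.97 and 10.6 on the DSS arrays, and its part in these gaps was not tested.

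**Figure D3:**
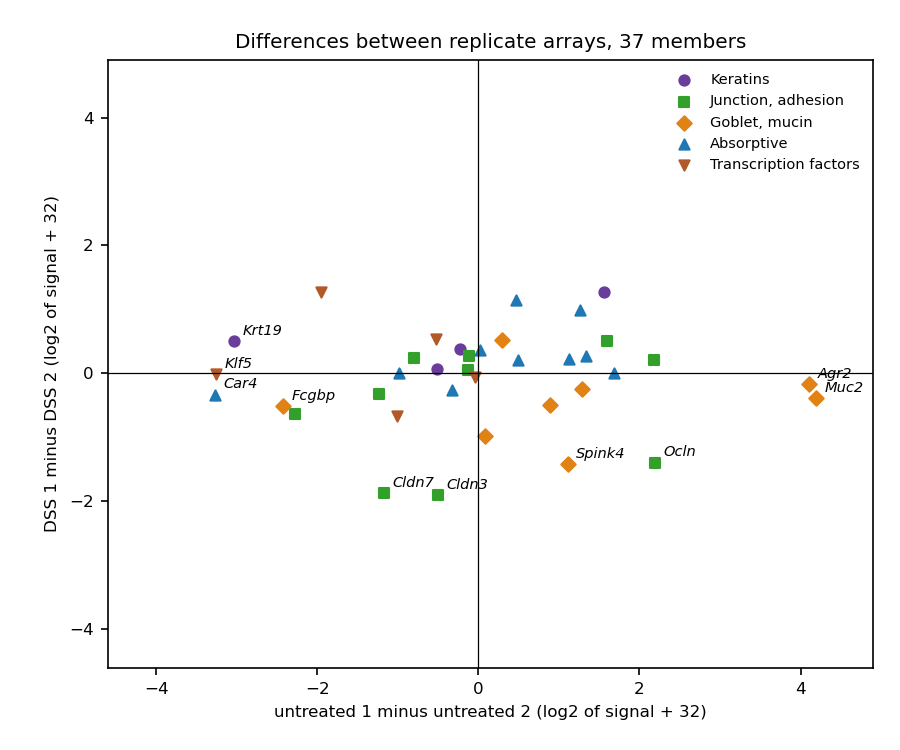
For each of the 37 members, the difference between the 2 untreated arrays (horizontal axis) and between the 2 DSS arrays (vertical axis), both on the log2(signal + 32) scale, with marker shape and colour by role. Points spread from -3.27 (Car4) to 4.19 (Muc2) between the untreated arrays and stay within 2 of 0 between the DSS arrays.

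Calls among the members therefore depended on which untreated array was kept. With untreated replicate 1 left out, limma called 3 of 31 members, all higher in DSS samples, against 14.4% of all genes. These were Muc2 (3.64, adjusted p = 0.00118), Cdh1 (1.56, adjusted p = 0.00257) and Cdh17 (2.34, adjusted p = 0.0233). With untreated replicate 2 left out it called 5 members, against 6.08% of all genes. Krt19 (3.16), Cdx2 (2.85) and Car1 (1.54) were higher, and Muc13 (-1.73) and Slc26a3 (-1.61) were lower. Cdx2 passed the filter through its DSS signals alone and had to differ, so its call carries no weight. In each of these fits the lone untreated array is assumed to vary like the DSS arrays, which were the closer pair. Limma called no member without either DSS array.

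The summed signal of the members gave a single figure for each array, and how far that figure measures epithelial RNA was not tested. Taken over 1 probe set for each of the 37 members, it was 38497 and 28937 on the untreated and 37568 and 34436 on the DSS arrays. The DSS sums lay between the untreated ones on the deposited scale. Divided by the array medians, a comparison chosen after seeing the data, the sums were 199 and 135 against 239 and 211, higher on both DSS arrays, so whether the groups separate depends on the scaling. The members held 0.0791% and 0.0554% of the summed signal of the untreated arrays and 0.0916% and 0.0784% of that of the DSS arrays. Car2, Cdh1 and Zg16 together made up 29.2% to 45.6% of the members' sum, so it follows those genes first. By role, the goblet and mucin sum was 10839 and 5361 on the untreated against 4974 and 6095 on the DSS arrays, and the keratin sum 2529 and 3302 against 4714 and 3820. The keratin sums were higher on both DSS arrays. Krt8 alone gave 1353 and 1950 of them against 2878 and 2753, while Krt18 was lower on both DSS arrays and Krt19 and Krt20 overlapped. The junction sums were also higher on both DSS arrays, narrowly, with 9633 and 7544 against 10949 and 9717. Cdh1 alone gave 5145 and 1675 of them against 5947 and 4191. The absorptive sums, 14050 and 10286 against 15167 and 13095, overlapped as deposited, but as a share of each array's summed signal they were higher on both DSS arrays, 0.0289% and 0.0197% against 0.0370% and 0.0298%.

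Markers of other cells were read beside them. The summed signal of 27 macrophage and dendritic cell genes was 55350 and 42549 on the untreated and 131120 and 154917 on the DSS arrays. Of the 23 tested, 19 lay higher on both DSS arrays (82.6%, against 17.2% of all tested genes). Some of these 19 lay below the array median on both untreated arrays, so they passed the filter through DSS signals alone and had to differ. Without a filter, 19 of the 27 lay higher on both DSS arrays (70.4%, against 14.8% of 18193 genes). The macrophage receptor Csf1r had 4342 and 1162 against 33267 and 40991. The sum of 30 T cell and intraepithelial lymphocyte genes was 874441 and 844044 on the untreated and 520685 and 554475 on the DSS arrays. A few bright genes carry the T cell sum. The median log2 level over that list overlapped between the groups, at 13.43 and 13.92 against 13.61 and 13.44. Of its 30 genes, 9 lay lower on both DSS arrays (30%, against 23.8% of all tested genes) and 5 higher (16.7%, against 17.2%). The part of such cells in any member's signal was not tested.

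**Figure D4:**
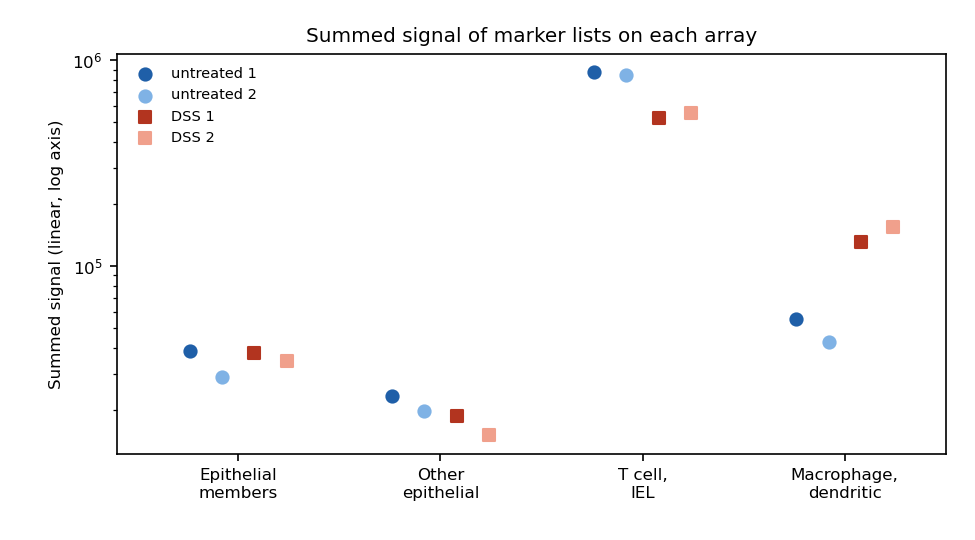
Summed deposited signal (log axis) of 37 epithelial members, 60 other epithelial genes, 30 T cell and intraepithelial lymphocyte genes and 27 macrophage and dendritic cell genes on each of the 4 arrays, 1 probe set per gene. Sums of different lists hold different probe sets and are compared only across arrays. The members' DSS points lie within the range of the untreated points, and the macrophage points lie above their own, on the deposited scale.

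A second list of 64 epithelial genes, among them genes of stem, tuft, enteroendocrine and goblet cells, was read for comparison. Of these, 60 were on the array and 39 were tested, and limma called 0. The estimates were higher for 14 and lower for 25. Both DSS arrays lay above both untreated arrays for 5 of the 39 genes (12.8%, against 17.2% of all genes) and below for 15 (38.5%, against 23.8%). The median difference was -0.45 as deposited, -0.20 once arrays were quantile normalized and -0.13 with common-median scaling. These genes were dimmer than most, with 20 of 39 in the lowest of 4 classes by mean signal, a class whose median was -0.28 and of which 28.6% lay lower on both DSS arrays. The list's summed signal was 23272 and 19732 on the untreated and 18631 and 15004 on the DSS arrays, lower on both of the latter, but as a share of each array's summed signal the groups overlapped, at 0.0478% and 0.0378% against 0.0454% and 0.0342%. Its 3 members with the smallest p were St14 (matriptase, a membrane protease of epithelia), Sycn, and Scnn1a, a subunit of the epithelial sodium channel. St14 had 529 and 408 against 155 and 102, a difference of -1.65 ± 0.54, and since it lay below the array median on both DSS arrays it passed the filter through its untreated signals alone and had to differ. Sycn had 511 and 730 against 292 and 220, and Scnn1a had 329 and 507 against 190 and 116.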

How the data were processed

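Per the labels' protocols, PicoPure extraction gave the RNA, which RiboAmp HS amplified before biotin labelling. The deposited values are linear intensities of 45101 probe sets, for which the submitters' processing notes name GCOS. The version of GCOS is not given in the sources used here. On each array the deposited intensities average 500 after trimming 2% at each end. Depth on an array means signal over background, and no detection calls were used. The number of arrays limits the precision.

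Probe sets with 1 platform symbol (34958, with 932 carrying several and 9211 none) were used, without the 64 control probe sets. All 37 members matched the RefSeq gene table by gene number. Kept probe sets exceeded their own array's median on at least 2 of 4 arrays, and each gene was read on its brightest kept probe set. Of the members' 76 probe sets 50 were kept, and 30 have names ending in _x_at, _s_at or _a_at, which can bind related transcripts or variants. Signals were compared as log2(signal + 32), which understates changes of dim genes, in R 4.3.3 with limma 3.58.1 (lmFit, eBayes with an intensity trend), group the only term, Benjamini-Hochberg adjustment over all genes, threshold 0.05. The step was tested on simulated data. Sums, counts and medians carry no test.

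The members and lists were chosen with earlier results of these data known. Every member was named; difference, SE and adjusted p were given for the 10 tested members with the smallest p, and for others where shown only difference and SE. Of other lists at most the 3 genes with the smallest p were named, besides Cd3e and Trgv4 as markers; the printed promoter windows were chosen after values were seen. Scaling, pseudocount, the filter, the intensity trend, the choice of probe set, a replicate block and each single array left out made up the 14 alternatives.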

Additional observations from a re-analysis of the deposited data

How the results depend on the processing

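Limma called 0 members of 31 and 0 genes as deposited and under both other scalings, both other pseudocounts, both other filters, without the _x_at, _s_at and _a_at probe sets and without the intensity trend. It called 3 genes but 0 members with the mean over each gene's probe sets, and 67 genes but 0 members with the replicate block; the labels' replicate numbers are not taken as pairing, since nothing ties arrays of the same number (correlation of their deviations 0.052). Leaving out 1 array gave 0 to 1791 genes and 0 to 5 members called. The members' median difference was -0.025 after quantile normalization, 0.26 after common-median scaling and 0.040 over all 37 without a filter, and -0.26 to 0.036 when 1 array was left out. Of 31 members, 13 kept their sign under each of the 14 alternatives that could be run for them. Under common-median scaling the sign turned for Epcam (0.17), Dsg2 (0.0025), Muc3 (0.031), Fcgbp (0.11), Zg16 (0.16), Slc9a3 (0.22) and Lgals4 (0.26), after quantile normalization for Ceacam1 (-0.092) and Slc9a3 (0.20), with averaged probe sets for Ceacam1 (-0.27) and Tspan8 (-0.50), and without the _x_at, _s_at and _a_at probe sets for Ceacam1 (-0.31). The cause was not tested beyond the shift that scaling gives all genes. Leaving out 1 array turned the sign of 16 members, whose values then ran from -0.28 to 1.28 for Krt20, -0.78 to 0.45 for Epcam, -0.043 to 1.56 for Cdh1, -0.98 to 1.30 for Cldn4, -0.026 to 0.11 for Ceacam1, -0.22 to 0.57 for Tspan8, -0.55 to 3.64 for Muc2, -1.41 to 1.02 for Fcgbp, -0.82 to 0.46 for Zg16, -1.11 to 2.16 for Car4, -1.61 to 0.078 for Slc26a3, -0.64 to 0.48 for Slc9a3, -0.45 to 0.81 for Aqp8, -0.27 to 0.10 for Lgals4, -1.11 to 0.24 for Pigr and -0.86 to 2.39 for Klf5. Dim signals limit the claudins, Ocln, Vil1, Agr2 and Cdx1 most.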

Other observations

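Lists of 4 further cell types that could accompany the epithelium were also read. Limma called 0 genes of each. Fibroblast and stromal genes, of which 10 of 17 were tested, had a median difference of -0.17, against -0.33 over all 17 without a filter. Of the 10 tested, 0 lay higher on both DSS arrays (against 17.2% of all tested genes) and 3 lower (30%, against 23.8%). The 3 with the smallest p were Sparc, Dpt and the muscle filament gene Des. Sparc, a matrix glycoprotein, had 496 and 541 on the untreated and 168 and 275 on the DSS arrays. Endothelial genes had 5 of 13 tested and a median of -0.87, against -0.50 over all 13 without a filter, and Flt1, a receptor for vascular endothelial growth factor, had 275 and 402 against 87.4 and 108, below the array median on both DSS arrays, so it passed the filter through its untreated signals alone and had to differ. Esam and Eng were the next 2 by p, and both overlapped between the groups. B cell and plasma cell genes had 7 of the 12 on the array tested with a median of -0.31, against -0.27 without a filter; Mzb1, a plasma cell chaperone, had 477 and 538 against 342 and 241, and Derl3 and Ms4a1 overlapped. Neutrophil genes had 8 of the 14 on the array tested with a median of -0.10, which was 0.14 over all 14 without a filter. Among them Hp (haptoglobin) lay higher on both DSS arrays, with 107 and 17.1 against 1052 and 608, while Mmp8 and Mpo were lower on both DSS arrays. Each of these 3 genes passed the filter through 1 group alone and had to differ.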
